A study of Homo sapiens with 3 samples.

Results

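The H3K36me3 peaks over 10 genes of proliferation and the cell cycle were examined in LNCaP, an androgen-responsive human prostate cancer cell line. The genes are MKI67, TOP2A, CDK1, MCM2, MCM3, MCM7, RRM2, CCND1, CDK4 and CDK6. They were picked by name, and the peaks counted are all those with at least 1 base inside the gene body, given on hg19 to the nearest 1 kb. This gave 32 of the 117568 peaks of untreated cells and 42 of the 131801 peaks of cells treated with dihydrotestosterone (DHT), a strong natural agonist of the androgen receptor. The series has 3 libraries: ChIP from cells with no treatment, ChIP from cells given 100 nM DHT for 4 h in red-free RPMI, and an input that was not analysed here. All were grown in RPMI with serum, and the untreated library is not said to have been moved to red-free medium, so a change of medium and the hormone cannot be told apart. With 1 library per condition no test was possible, no difference below has a replicate check, and sequencing depth is unknown. The label LNCaP was not checked against prostate genes, since no gene models of hg19 were used.

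H3K36me3 is trimethylation of lysine 36 of histone H3. The enzyme SETD2 travels with elongating RNA polymerase II and deposits it, so the mark lies inside transcribed genes, tends to be low at the start and extends to the end. The cell-cycle genes fall into waves: D-type cyclin with CDK4 and CDK6 drives cells out of G1, E2F factors then switch on the replication genes, and CDK1 with the chromosome machinery acts in G2 and mitosis. LNCaP cells depend on androgen to pass from G1 to S phase. Chromatin from a growing culture mixes all phases, so a mark in few cells and a weak mark in all cells cannot be told apart.

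Promoters of MCM2, MCM3, MCM7 and CDK1 held an E2F site found in few genes elsewhere. Those of CDK4 and CDK6 held none of the motifs searched. The motifs were chosen after some promoters had been read, so the counts describe these genes and test nothing. RefSeq promoters (GRCh38.p14, 300 bases around each start) were found for 9 of the 10 genes. The E2F site TTTCGCG, searched on both strands, occurred in promoters of 4 of the 9, namely MCM2, MCM3, MCM7 and CDK1, against 1.60% of the 27305 genes in that table. The cell-cycle homology region (CHR) TTTGAA, bound by the complex that times G2 and mitotic genes, occurred in 3 of 9, namely MKI67, TOP2A and CDK1, against 18.2% of genes. Of the other forms searched, the E2F form TTTCCCG was found in MKI67, MCM3 and MCM7 (5.19% of genes), and TTTGGCG and the CHR form TTCGAA were found in no member (2.32% and 1.82% of genes). The CCAAT box, the site of NF-Y, was found in 6 of 9 against 39.7% of genes, and was the only motif found in RRM2. With 9 promoters and such common motifs, the TTTGAA and CCAAT counts were not read as a trait of these genes. A match is also not proof of binding. The excerpts below show the E2F sites of the 3 MCM genes, then CHR elements of the mitotic genes, 30 bases each in the direction of the gene with the motif in capitals.
MCM2: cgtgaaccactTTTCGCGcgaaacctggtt
MCM3: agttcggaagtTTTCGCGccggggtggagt
MCM7: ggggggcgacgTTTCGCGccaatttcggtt
CDK1: tagcgcggtgagTTTGAAactgctcgcact
MKI67: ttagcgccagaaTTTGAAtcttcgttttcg
TOP2A: cgagtggtgcctTTTGAAgcctctctagtc
On GRCh38.p14 they lie at chr3:127598402-127598431 (plus strand), chr6:52284728-52284757 (minus), chr7:100101388-100101417 (minus), chr10:60778453-60778482 (plus), chr10:128126453-128126482 (minus) and chr17:40418073-40418102 (minus), in the order printed. In MCM2 the same stretch also holds the site on the other strand, overlapping the first.

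Few peaks lay near the starts of the gene bodies, as in most windows of that size. Within 1 kb of the start edge of the body on either side, no base was under a peak at any of the 10 genes after DHT, and at 9 of 10 in untreated cells. The exception was CDK4, where 22 bp of an untreated peak reached in. Of all 2 kb windows of the genome, 91.6% had no untreated peak and 90.9% no DHT peak. These windows include sequence outside genes. Starts of other genes were not compared, so whether empty starts set these genes apart was not tested. The first peak inside a body began 0.978 kb (CDK4) to 47.8 kb (CDK6) from the start edge in untreated cells. After DHT the nearest was in MCM7, at 1.41 kb, apart from a closer one in RRM2, and the farthest was 59.1 kb away, in CDK6.

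The replication genes were the most marked group in both libraries, and the rank of the G1 group depended on the long CDK6 gene. Peaks covered 23.2% of the 4 replication gene bodies in untreated cells and 24.5% after DHT. The 3 mitotic genes stood at 8.38% and 7.55%, and the 3 G1 genes at 1.38% and 0.609%. Without CDK6 the G1 genes stood at 17.4% and 4.67%, above the mitotic group in untreated cells and below it after DHT. Over all 387 kb of the 10 bodies the values were 6.25% and 5.80%, and without CDK6, which makes up 232 kb, they were 15.3% and 14.0%. Windows of the same lengths tiled along chromosomes 1 to 22 and X averaged 2.12% in untreated cells and 2.17% after DHT, whatever the length. These windows, used for each gene below too, include sequence outside genes. Other gene bodies were not compared.

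**Figure D1:**
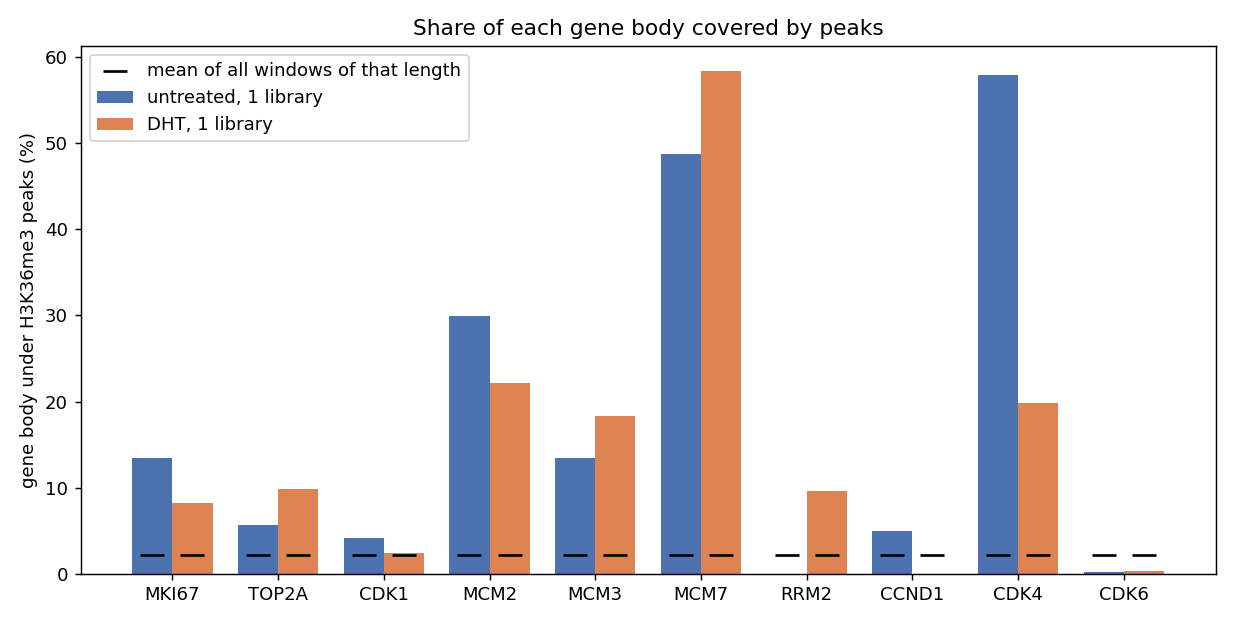
Share of each gene body under H3K36me3 peaks (y axis, percent) for the 10 genes (x axis), with untreated cells in blue and DHT in orange, 1 library each and so without error bars. Black ticks give the mean of all windows of that length. MCM7 and untreated CDK4 stand highest, near or above 48.7%, and CDK6 lies below its ticks in both libraries.

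MCM7 had the largest covered share of the 10 bodies after DHT. MCM2, MCM3 and MCM7 encode subunits of the MCM2-7 helicase, which is loaded at replication origins in G1 and unwinds DNA in S phase. The MCM7 body (chr7:99690001-99699000) was covered over 4385 bp, or 48.7%, in untreated cells and over 5256 bp, or 58.4%, after DHT. The difference of 9.68 points was 2.82 in the higher-scoring 50% of each list, 0.50 with the body widened by 1 kb on each side, and turned to -15.6 with peaks joined at 5 kb. Since the edges are given to 1 kb only, this difference is not firm. Of all 9 kb windows, 0.144% were at least as covered in untreated cells and 0.0647% after DHT. Only 21.1% of these windows held any untreated peak and 22.6% any DHT peak. Untreated cells had 3 peaks of 554 to 2036 bp and the DHT library 4 of 882 to 2338 bp, and each overlapped a peak of the other library. The sequence in the middle differed: an untreated peak of 1795 bp (chr7:99694625-99696419, score 142) and a DHT peak of 2338 bp (chr7:99692517-99694854, score 62.6) shared only 230 bp. The score is the authors' value for a peak, with a median of 81.2 in the untreated and 85.7 in the DHT list, and it ranks peaks within a list only. The top peak after DHT was chr7:99691004-99692027, score 319, which 3.08% of that list reached.

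MCM7 is also the host of 3 microRNA genes, MIR106B, MIR93 and MIR25, which are cut from its intron and are known to repress cell-cycle inhibitors. In RefSeq (GRCh38.p14) all 3 lie on the minus strand of chromosome 7 like their host, and they are made from its transcript. Mature forms are shown as products of this host gene, with the seed (bases 2 to 8) in capitals.
hsa-miR-106b-5p: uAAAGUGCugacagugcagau
hsa-miR-93-5p: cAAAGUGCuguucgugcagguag
hsa-miR-25-3p: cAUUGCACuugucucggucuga
The first pair shares the seed AAAGUGC, and miR-25-3p has another. They lie at chr7:100094043-100094063, chr7:100093815-100093837 and chr7:100093571-100093592 of GRCh38.p14, and were not placed among the hg19 peaks. Neighbouring genes also meet MCM7: in the GRCh38.p14 gene table AP4M1 overlaps its start and COPS6 lies within 5 kb of its end. Peaks covered 38.2% (untreated) and 50.3% (DHT) of the 9 kb upstream, and 15.0% and 0.144% of the 9 kb downstream, so part of the MCM7 coverage may belong to a neighbour, which was not tested.

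MCM2 was covered over 7182 bp, or 29.9%, in untreated cells and 5322 bp, or 22.2%, after DHT (body chr3:127317001-127341000). Both libraries had 5 peaks there. The widest untreated member peak of all 10 genes, 3838 bp at chr3:127324806-127328643 with score 158, held a DHT peak of 1813 bp at chr3:127324810-127326622 with score 304. Their left edges differ by 4 bp, while the right part was covered in untreated cells only. At the end of the gene, an untreated peak of 2367 bp (chr3:127339039-127341405, score 278) contained 2 DHT peaks of 955 and 523 bp, scores 309 and 82.2. The first part of the body had 3 untreated peaks, of 272, 479 and 631 bp, and no DHT peak, and only the DHT library had a peak of 1436 bp at chr3:127335162-127336597. Of all 24 kb windows, 0.309% in untreated cells and 1.26% after DHT were at least as covered. The upstream flank of MCM2 was covered at 18.2% in untreated cells and 6.22% after DHT, and the downstream flank at 15.1% and 10.4%. In the GRCh38.p14 gene table a long non-coding RNA gene overlaps MCM2 and TPRA1 lies within 5 kb. Whether part of the coverage belongs to a neighbour was not tested.

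MCM3 carried many short peaks rather than wide ones. The body (chr6:52129001-52150000) was covered over 2812 bp, or 13.4%, by 6 untreated peaks and over 3850 bp, or 18.3%, by 10 DHT peaks. Of the 6 untreated peaks 5 overlapped a DHT peak. The closest pair, chr6:52140983-52141359 with score 222 and chr6:52140943-52141340 with score 315, shared 358 bp. The DHT peaks without a counterpart, 5 in number, lay between these shared positions and scored 68.1 to 129. The difference of 4.94 points shrank to 0.476 with peaks joined at 5 kb.

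RRM2, the small subunit of ribonucleotide reductase that makes deoxynucleotides for S phase, was the replication gene with least coverage. No peak lay in its 8 kb body (chr2:10263001-10271000) in untreated cells. After DHT 2 peaks covered 773 bp, or 9.66%: chr2:10264251-10264596 of 346 bp with score 57.8, and chr2:10267576-10268002 of 427 bp with score 91.7. A DHT peak of 293 bp with score 70.7 followed 1879 bp past the end. One of the 2 body peaks was below the list median, and 7.70% of 8 kb windows were at least as covered after DHT. The GRCh38.p14 gene record of RRM2 is longer than the hg19 body used here, and peaks farther out were not counted.

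**Figure D2:**
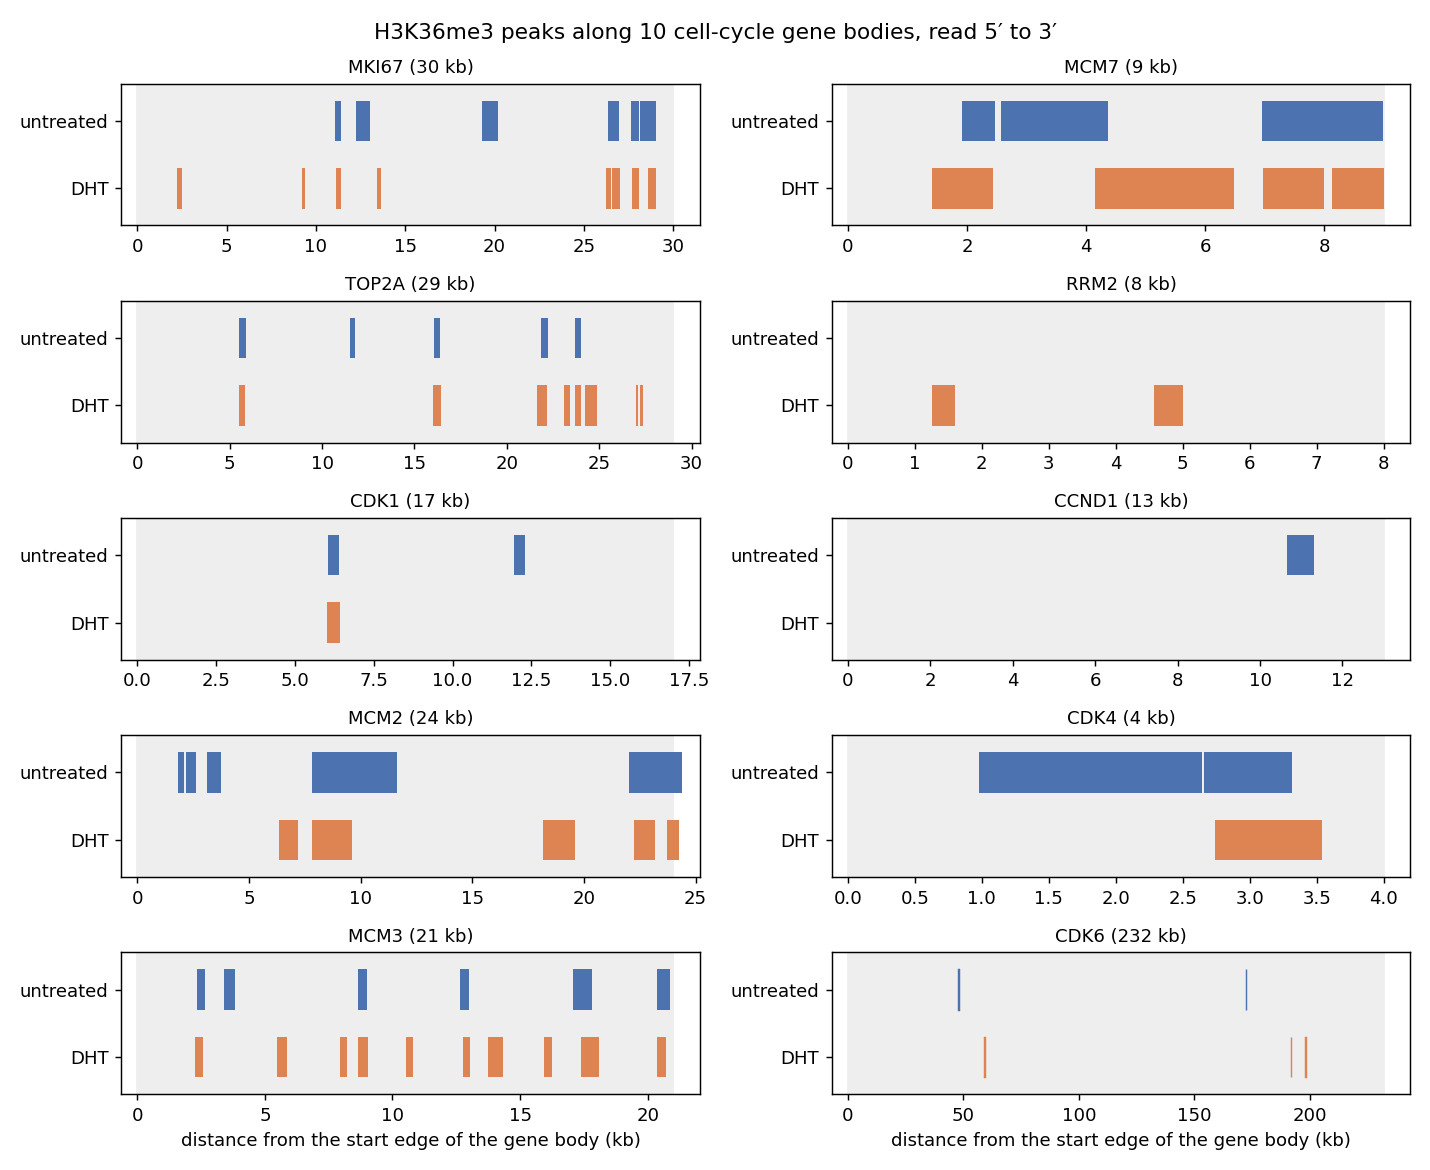
Position of every peak along each gene body (x axis, distance from the start edge in kb, read in the direction of transcription; grey is the body), with untreated peaks in blue on the upper row and DHT peaks in orange on the lower row. MCM7 and MCM2 carry wide blocks, MCM3, MKI67 and TOP2A scattered short peaks, and CCND1 and RRM2 have peaks in 1 library only.

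MKI67 and TOP2A, markers of cycling cells, were both marked in both libraries and differed in opposite directions. MKI67 encodes the Ki-67 protein that coats mitotic chromosomes. Its body (chr10:129895001-129925000) was covered over 4020 bp, or 13.4%, by 6 untreated peaks and over 2463 bp, or 8.21%, by 8 DHT peaks. The last part of the gene was marked alike: the 3 untreated peaks and 4 DHT peaks nearest the end edge all overlapped a peak of the other library, among them chr10:129896924-129897358 and chr10:129896931-129897284, which shared 354 bp. Each of the 5 overlapping pairs in MKI67 had the narrower peak after DHT, for example 924 against 448 bp. More peaks covered less sequence after DHT, through both these pairs and the unmatched peaks described below. With each list joined at 5 kb the difference turned from -5.19 to 6.52 points. Untreated peaks of 922 and 801 bp in mid-gene had no DHT counterpart, and 3 DHT peaks of 163 to 264 bp had no untreated one.

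TOP2A, topoisomerase II alpha, untangles chromosomes before they separate. Its body (chr17:38545001-38574000) was covered over 1636 bp, or 5.64%, by 5 untreated peaks and over 2859 bp, or 9.86%, by 8 DHT peaks. Of the untreated peaks 4 overlapped a DHT peak, and 3 of these pairs shared at least 80% of both peaks. The closest, chr17:38550007-38550334 (score 124) and chr17:38550003-38550327 (score 55.7), shared 321 bp. The 4 DHT peaks without a counterpart all lay toward the 3′ end, with midpoints at 80.2% to 94.1% of the body and scores of 52.95 to 82.9, all below the list median of 85.7. A further pair of DHT peaks, scores 52.2 and 51.7, lay 1349 and 713 bp past the end edge, where untreated cells had none within 5 kb.

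CDK1, the mitotic kinase, had little of the mark. Its body (chr10:62538001-62555000) had 2 untreated peaks of 355 bp each, 710 bp or 4.18%, and 1 DHT peak of 413 bp, or 2.43%. The DHT peak, chr10:62544032-62544444 with score 102, wholly contained the untreated one at chr10:62544059-62544413, score 53.1. Of 17 kb windows, 15.4% were at least as covered in untreated cells and 20.3% after DHT. In the higher-scoring 50% of each list only the DHT peak was left, and the difference turned from -1.75 to 2.43 points.

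The G1 genes differed widely in coverage. CDK4, the kinase partner of D-type cyclins that phosphorylates RB, had the largest difference among the 10 genes in percentage points in the lists as deposited. With peaks joined at 5 kb RRM2 differed by more, 84.4 points against -38.6 for CDK4. Its 4 kb body (chr12:58142001-58146000) was covered over 2318 bp, or 57.95%, in untreated cells and over 794 bp, or 19.9%, after DHT, a difference of -38.1 points. The untreated peaks were chr12:58142687-58143340 (654 bp, score 104) and chr12:58143359-58145022 (1664 bp, score 197). After DHT a single peak, chr12:58142465-58143258 of 794 bp with score 320, overlapped the first by 572 bp, and the second had no counterpart. This DHT peak had the highest score of the 42, reached by 3.05% of its list. Both flanks of 4 kb were without peaks in both libraries. In the GRCh38.p14 table TSPAN31 overlaps CDK4, and peaks in shared sequence could not be assigned to either gene.

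CCND1 encodes cyclin D1, the partner that activates CDK4 and CDK6. Its 13 kb body (chr11:69456001-69469000) held 1 untreated peak, chr11:69466659-69467303, of 645 bp with score 146, 4.96% of the body, and none after DHT. It lay 10.7 to 11.3 kb from the start edge, in the last part of the gene. The flank downstream was covered more than the body in both libraries, 12.1% and 13.1%.

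CDK6, the second G1 kinase, is 232 kb long and was almost empty (chr7:92234001-92466000). Untreated cells had 2 peaks covering 475 bp, 0.205%, and the DHT library 3 covering 723 bp, 0.312%, with no overlap between them. Scores were 62.7 and 65.7 in untreated cells and 52.0 to 117 after DHT. More than this was covered in many windows of that length: 59.8% and 55.2% were at least as covered. Its downstream flank stood at 7.17% and 5.14%.

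The bodies were compared with flanks of their own length as a local background. In untreated cells 7 of the 10 bodies were more covered than both flanks, and none was below both. After DHT 7 were above both and 1, CCND1, was below both. The share of other windows that exceed both neighbours was not computed, so the counts of bodies above their flanks have no background beside them. The upstream flank had no peak at 6 genes in untreated cells and at 7 after DHT, among them MKI67, TOP2A, MCM3, CDK4 and CDK6 in both. Windows of the body lengths were without a peak in 29.8% to 86.8% in untreated cells and 29.1% to 85.7% after DHT, depending on length. The means over the 10 lengths were 68.7% and 67.1%, so the counts of empty upstream flanks are near the background. Downstream of MKI67 coverage was 12.4% and 20.3%, so there the DHT body was below its flank.

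**Figure D3:**
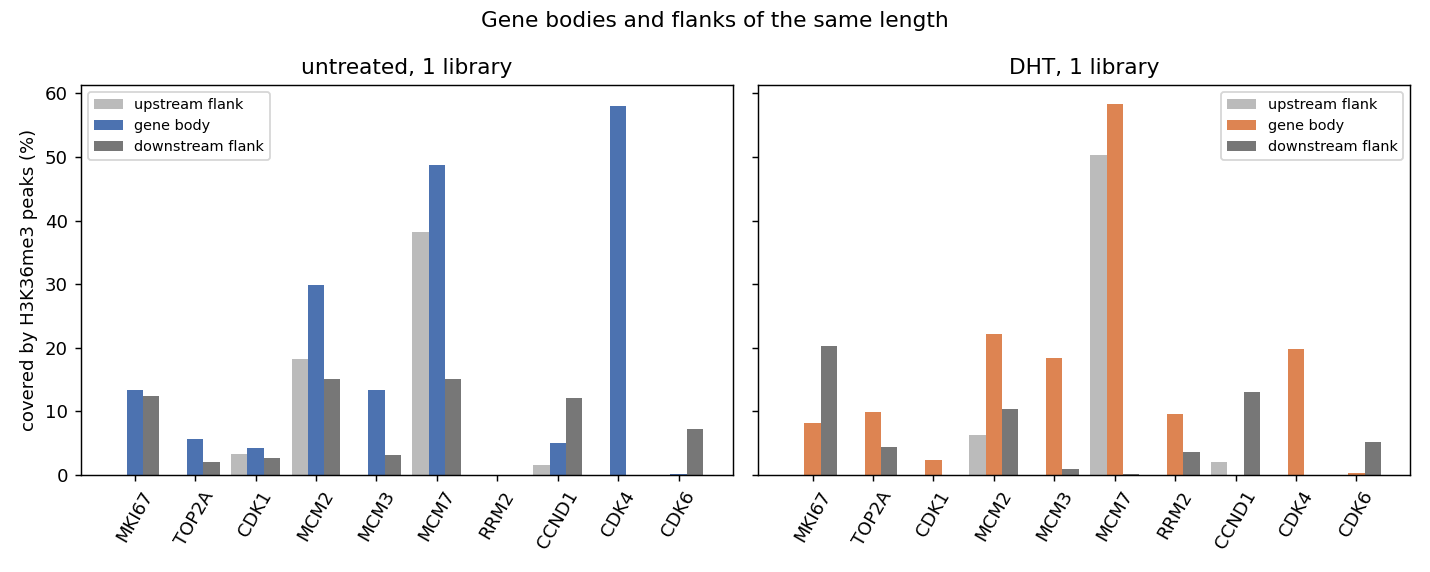
Percent covered by peaks (y axis) in each gene body and in flanks of the same length upstream (light grey) and downstream (dark grey), for untreated cells (left) and DHT (right), 1 library each. Most bodies stand above their upstream flank, MCM7 has a covered upstream flank in both libraries, and CCND1 and CDK6 have a downstream flank above the body.

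A difference of 1.5-fold in covered length was about as common among these genes as in windows of the genome with enough coverage to compare. All 10 bodies had at least 500 bp covered in either library, the minimum set for a comparison. Windows below that minimum were left out of the shares that follow. After DHT 3 were at least 1.5-fold more covered (TOP2A, 1.75-fold, CDK6, 1.52-fold, and RRM2, with no untreated peak), where 28.1% of windows of these lengths were. At least 1.5-fold less covered were 4 (MKI67, 1.63-fold, CDK1, 1.72-fold, CDK4, 2.92-fold, and CCND1, with no DHT peak), where 27.8% of windows were. The background ranged with window length from 19.0% to 30.7% higher and from 17.1% to 32.6% lower, so 3 and 4 of 10 are close to what the lists show elsewhere. CDK6 was just inside the limit and MCM3, 1.37-fold more covered, and MCM2, 1.35-fold less covered, just outside. Summed over the 10 bodies, covered length after DHT was 0.928 times that of untreated cells (22453 against 24183 bp), against 1.03 over both lists. Without MCM2 the ratio was 1.01, so the direction rests on that gene, and it was 1.04 and 1.06 with peaks joined at 1 kb and 5 kb. It was above 1 in the replication group (1.06) and below it in the mitotic (0.901) and G1 (0.441) groups. Single genes decide the first pair of these: the replication ratio was 0.995 without MCM7, 0.981 without MCM3 and 1.37 without MCM2, and the mitotic ratio was 1.39 without MKI67 and 0.608 without TOP2A. The G1 ratio was below 1 without any 1 of its genes, from 0.268 without CDK6 to 0.646 without CDK4.

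Peaks recurred at the same places in shares close to those of the whole lists. Of the 32 untreated peaks, 62.5% (95% Wilson interval 45.3% to 77.1%, counting error only) were overlapped by a DHT peak, against 52.3% of the whole list. Of the 42 DHT peaks, 54.8% (39.9% to 68.8%) were overlapped by an untreated peak, against 48.5%. Both intervals include the value of the list. Of all sequence covered in either library, 31.4% was covered in both, against 32.5% in the lists. Among genes the shared part was 46.2% in CDK1, 40.8% in TOP2A, 37.5% in MCM7, 33.5% in MKI67, 32.7% in MCM3, 31.9% in MCM2 and 22.5% in CDK4. It was 0 in CDK6, CCND1 and RRM2. Pairs whose overlap made up at least 80% of both peaks numbered 7, of which 3 lay in TOP2A, 2 in MKI67 and 1 each in MCM3 and CDK1.

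Where peaks overlapped, the DHT peak was usually the narrower one, as in the lists as a whole. It was narrower in 15 of 23 overlapping pairs, or 65.2%, where 64.8% of the 65407 pairs of both lists were. Every overlap counts as a pair, in the lists too, so an untreated peak overlapped by several DHT peaks enters more than once. The 23 pairs came from 20 untreated peaks, with such split peaks in MKI67, MCM2 and MCM7. A piece of a split peak is likely to be narrower. Median widths in these pairs were 554 bp untreated and 413 bp after DHT in the 10 genes, and 503 and 415 bp in the lists. In MKI67 all 5 and in MCM2 all 3 pairs were narrower after DHT, while the single pairs of CDK1 and CDK4 were wider.

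**Figure D4:**
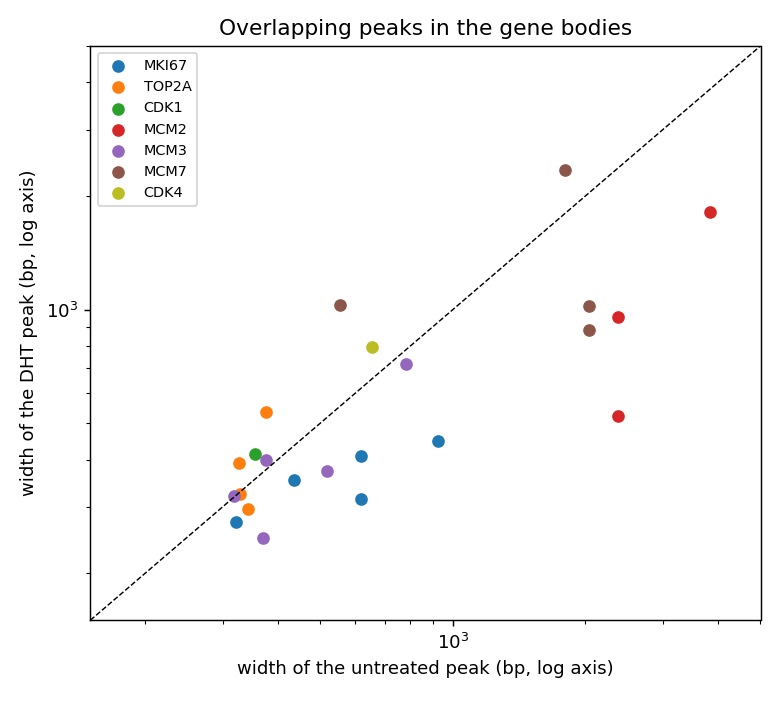
Width of each DHT peak (y axis, bp, log scale) against the untreated peak it overlaps (x axis, bp, log scale) in the gene bodies, 1 point per pair, coloured by gene, with the line of equal width dashed. Of the 23 pairs 15 lie below the line, among them all of MKI67 and MCM2. An untreated peak overlapped by several DHT peaks gives several points.

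The place of the covered sequence within the gene bodies was compared between the libraries. When each body was cut into 4 equal parts in the direction of transcription, untreated peaks covered 3055, 8974, 3218 and 8936 bp from first to last, and DHT peaks 2067, 5653, 4285 and 10448 bp. The 2 parts on the 3′ side held 50.3% of the covered length in untreated cells (95% Wilson interval from the effective number of peaks 28.4% to 72.1%, counting error only) and 65.6% after DHT (46.0% to 81.1%). The intervals overlap, and both include 50%. They treat peaks as independent, although many lie in the same genes and each condition has a single library. Whether the shares differ or lean to a side was not tested. In the higher-scoring 50% of each list the values were 37.4% and 55.7%. Of the bodies with a peak, 6 of 9 had more on the 3′ side than on the 5′ side in untreated cells and 7 of 9 after DHT. CDK1 was level in untreated cells, and in bodies with few peaks a single peak sets the side. The share among other genes or windows was not computed, so no lean is read from these counts. The second part of untreated cells owed 3838 of its 8974 bp to the wide MCM2 peak. By gene, the share on the 3′ side was 46.4% untreated and 73.8% after DHT in MCM7, 63.0% and 89.7% in TOP2A, 27.3% and 49.8% in MCM2, and 72.1% and 61.9% in MKI67. It was 59.4% and 64.9% in MCM3, 55.9% and 100% in CDK4, 55.2% and 55.2% in CDK6, and 50% and 0% in CDK1. CCND1 had no DHT peak and RRM2 no untreated peak.

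**Figure D5:**
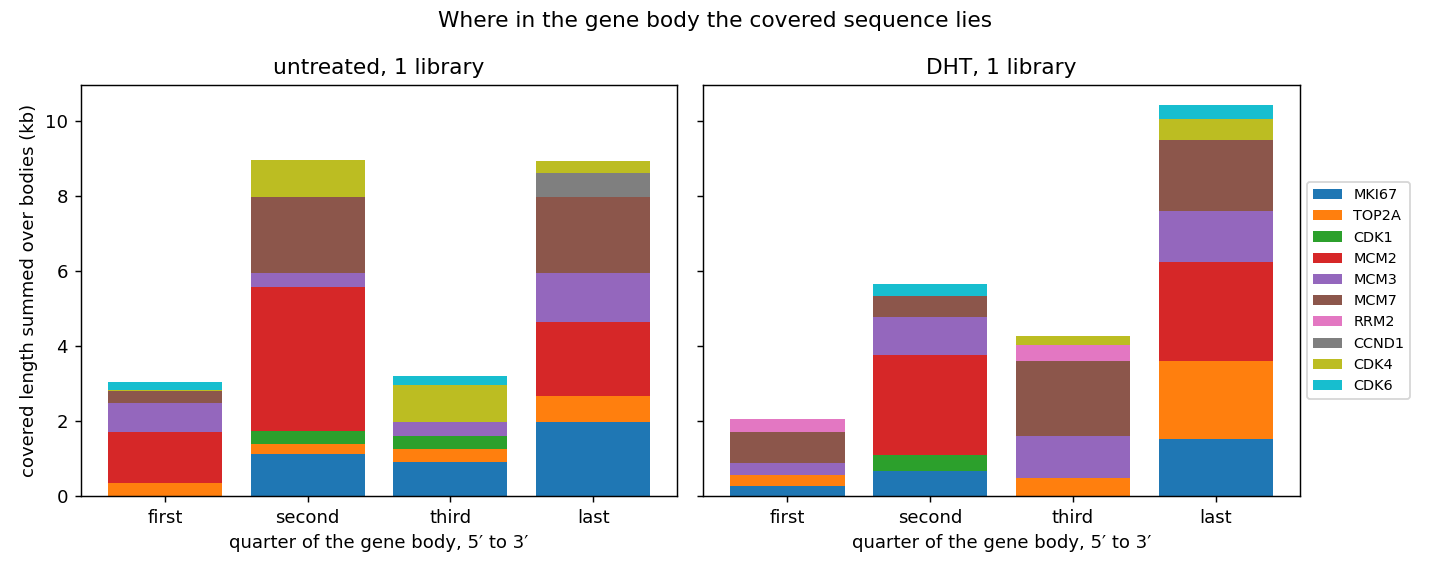
Covered length in kb, summed over the gene bodies (y axis), in 4 equal parts of the body from 5′ to 3′ (x axis), stacked by gene, for untreated cells (left) and DHT (right), 1 library each. The first part is the least covered in both libraries, and after DHT the last part is the most covered, at 10448 bp.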

How the data were processed

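Peak lists of 2 ChIP-seq libraries were used, 1 each for untreated and DHT-treated cells. The authors deposited chromosome, start, end, name and a score for each peak. The score's scale is not stated. MACS made the calls, 1 list per library, as the deposited peak names show, on hg19, per the names of the files. For the caller's version, settings and control, and for the aligner, nothing is given in the sources used here. Peaks were not assigned to exons or introns. Gene bodies were taken as rounded hg19 coordinates, and covered length was counted in Python 3.11.15 with NumPy 2.4.6. It equalled that of bedtools 2.31.1 for each body, and the functions were tested on simulated data. Strand came from the RefSeq promoter table and, for CCND1, from general knowledge. Peaks count as overlapping at 1 bp. Windows of each body's length were tiled over chromosomes 1 to 22 and X. No p-value was computed. Members and lists were chosen with earlier results of these data known. All 10 members are named, and other genes only where a table places them beside a member. Other cell-cycle genes on a planned list could not be placed without hg19 gene models and were not analysed here.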

Additional observations from a re-analysis of the deposited data

How the results depend on the processing

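With 1 library per condition, depth and spread between cultures are unknown, peaks show where a threshold was passed, and body edges are good to 1 kb. No paired analysis was possible because each condition has 1 library and nothing was tested. The covered length ratio, 0.928, turned to 1.04 with peaks joined at 1 kb, 1.06 joined at 5 kb and 1.01 without MCM2. The higher-scoring 50% of each list left 16 untreated and 23 DHT peaks, of which 39.1% of the DHT peaks were overlapped. Joined at 5 kb there were 16 and 16, and the shared part was 52.2%. At 2-fold, 1 body was more and 2 were less covered after DHT. Directions turned for MKI67 (-5.19 to 6.52 points) and MCM7 (9.68 to -15.6 points) joined at 5 kb, and for CDK1 in the higher-scoring 50% (-1.75 to 2.43 points). Trimming both lists to the same covered length left all 20 results identical, so it tested nothing. In the 4 settings that changed a value, the other 7 genes kept their direction, though MCM3 ranged down to 0.476 points joined at 5 kb and RRM2 ranged from 5.34 to 84.4 points, the latter joined at 5 kb. Leaving out members in turn was added after seeing the data.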
